A study of Mus musculus with 2 samples.

Results

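The nuclear-encoded subunits of oxidative phosphorylation were followed on 2 gene expression arrays of MIN6 cells, a mouse insulinoma line. Probes were taken where their RefSeq accession belongs to a gene whose symbol starts with Nduf, Uqcr, Atp5 or Cox4 to Cox8, or is Sdha, Sdhb, Sdhc or Sdhd, and assembly factors with symbols starting Ndufaf were left out. This gave 85 genes with 114 probes, of 20653 named genes with 27224 probes on the array. By the start of the symbol, 38 genes (44 probes) belong to complex I, 4 genes (6 probes) to complex II, 8 genes (14 probes) to complex III, 18 genes (23 probes) to complex IV and 17 genes (27 probes) to ATP synthase. Of 107 symbols of the annotation that meet the rule, 22 had no accession among the probes, and 16 of those are pseudogenes by name. The others are Cox6c2, Ndufa11b, Ndufb1, Ndufb4b, Ndufb4c and Ndufs6b.

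The cells, from a transgenic C57Bl/6 mouse and at passages 15 to 20, received lentivirus made with pLVX-IRES-ZsGreen carrying mouse FTO or with the same vector without FTO, and green fluorescence was looked at after 48 h. FTO is an RNA demethylase, and both groups carry the virus and the ZsGreen marker, so they differ by design in the FTO insert. There was 1 array per condition, hybridized with Cy3-labeled RNA of a bulk culture. In such a culture fewer cells of a type and less RNA per cell cannot be told apart, and an effect of FTO cannot be told apart from other differences between the cultures.

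Oxidative phosphorylation takes place in the inner mitochondrial membrane. Complex I (NADH dehydrogenase) and complex II (succinate dehydrogenase) pass electrons to ubiquinone, complex III (the cytochrome bc1 complex) passes them on to cytochrome c, and complex IV (cytochrome c oxidase) gives them to oxygen. Complexes I, III and IV pump protons, and ATP synthase uses the returning protons to make ATP. In pancreatic β cells the ATP made from glucose closes ATP-sensitive potassium channels, which leads to calcium entry and insulin release. Most subunits are encoded in the nucleus and a small set in mitochondrial DNA. The 13 mitochondrially encoded subunits had no probe that these accessions name, so their levels are not given.

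The promoters of the subunit genes are shown because genes of all 5 complexes are commonly described as sharing binding letters for 2 activators of mitochondrial genes, NRF1 and the ETS-family factor GABP. RefSeq sequences of the build GRCm38.p6 were matched by symbol for 69 of the 85 genes, which have 74 promoters of 250 bases before the annotated start. Both strands were searched. The NRF1 letters, which are GCGC, then any base, then TGCGC, stood in 14 of the 74 subunit promoters (18.9%) and in 3.74% of all 32851 promoters of the same length. The ETS letters CCGGAAG stood in 12 (16.2%), against 6.91% of all promoters. The YY1 letters AAGATGGC stood in 1 (1.35%, against 1.56%), the core ACGTG of the hypoxia response element in 15 (20.3%, against 16.6%) and the TATA box TATAAA in 8 (10.8%, against 12.4%). An ETS match and a YY1 match can share the letters AAG. The median GC content was 56.2% in the subunit promoters and 52.4% in all promoters. The NRF1 letters, made almost wholly of G and C, were therefore searched in promoters with a higher GC content than the rest.

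In all, 22 genes held the NRF1 or the ETS letters, and 3 held both: Sdhd, a membrane anchor of complex II, Cox6a1, the widely expressed form of a complex IV subunit, and Atp5h, subunit d of the ATP synthase peripheral stalk. These 3 are printed first, 5′ to 3′ on the strand of the gene and ending at the base before the start. Capitals mark the NRF1 and ETS letters on either strand, so that CTTCCGG is the ETS match read on the opposite strand. Sdhd lies at chr9:50603850-50604099 on the minus strand, Cox6a1 at chr5:115348959-115349208 on the minus strand and Atp5h at chr11:115419920-115420169 on the minus strand.
Sdhd: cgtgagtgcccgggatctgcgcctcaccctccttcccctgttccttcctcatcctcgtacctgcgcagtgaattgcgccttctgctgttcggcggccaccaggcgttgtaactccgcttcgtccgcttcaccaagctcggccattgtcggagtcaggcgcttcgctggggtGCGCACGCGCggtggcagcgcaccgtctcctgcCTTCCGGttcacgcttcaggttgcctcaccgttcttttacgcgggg
Cox6a1: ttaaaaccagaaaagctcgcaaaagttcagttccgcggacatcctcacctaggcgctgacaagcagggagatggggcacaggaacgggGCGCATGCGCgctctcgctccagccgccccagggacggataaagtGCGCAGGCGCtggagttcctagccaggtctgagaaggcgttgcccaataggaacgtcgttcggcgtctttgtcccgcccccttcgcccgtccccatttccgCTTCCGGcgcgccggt
Atp5h: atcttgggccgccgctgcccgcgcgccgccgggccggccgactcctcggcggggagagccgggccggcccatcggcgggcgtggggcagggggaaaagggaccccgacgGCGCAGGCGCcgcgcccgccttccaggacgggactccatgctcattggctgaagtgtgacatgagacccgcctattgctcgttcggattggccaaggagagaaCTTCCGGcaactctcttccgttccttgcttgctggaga

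The next 3 have no capitals, since neither set of letters stands in their 250 bases. Cox7a1 and Cox8b, heart and muscle forms of complex IV subunits, stand for the tissue isoforms described further on, and Ndufa1, an accessory subunit in the membrane arm of complex I, for the subunits that differed most between the arrays. Cox7a1 lies at chr7:30183921-30184170 on the plus strand, Cox8b at chr7:140900447-140900696 on the minus strand and Ndufa1 at chrX:37191239-37191488 on the minus strand. The median GC content named above lies between that of Cox8b (47.2%) and that of Sdhd (64.4%).
Cox7a1: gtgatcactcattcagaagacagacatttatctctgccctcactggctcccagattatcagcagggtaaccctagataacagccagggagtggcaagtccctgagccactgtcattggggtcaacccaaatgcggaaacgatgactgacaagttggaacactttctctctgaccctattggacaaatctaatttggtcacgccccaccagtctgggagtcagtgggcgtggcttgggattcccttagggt
Cox8b: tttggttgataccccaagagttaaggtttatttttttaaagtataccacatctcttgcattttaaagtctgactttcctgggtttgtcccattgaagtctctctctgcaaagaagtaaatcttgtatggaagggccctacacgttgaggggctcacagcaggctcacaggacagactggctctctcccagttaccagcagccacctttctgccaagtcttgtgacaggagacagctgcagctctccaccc
Ndufa1: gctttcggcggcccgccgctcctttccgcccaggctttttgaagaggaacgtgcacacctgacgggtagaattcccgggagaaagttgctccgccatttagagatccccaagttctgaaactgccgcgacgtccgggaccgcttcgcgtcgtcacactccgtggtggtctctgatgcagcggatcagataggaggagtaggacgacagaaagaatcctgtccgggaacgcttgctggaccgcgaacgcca

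The arrays themselves differed in brightness, with a median signal of 292 for FTO and 237 for control, and no spot was saturated. Signals below are intensities in the scanner software's units after background subtraction and before normalization between arrays, and log2 differences are FTO minus control after quantile normalization, which gives both arrays the same distribution of values. A spot error is the combined error estimate of both spots on the log2 scale, and it does not hold the variation between cultures. It was 0.20 or 0.21 for every detected subunit except Cox8b (0.31), so being past it is nearly a fixed cut. Probes printed 10 times with a log2 signal of 16 or more had a smaller spread within an array. The median SD over their spots was 0.07 for FTO and 0.069 for control. For Fto itself the signals were 7301 and 5179 and the log2 difference was 0.06, within a spot error of 0.20, so the arrays are called FTO-labelled and control-labelled, in this order wherever a pair of signals is given, and directions rest on the labels. On both arrays all 10 β-cell markers were detected (well above background), with Ins2 at 276722 and 320363 and Gcg, the glucagon gene of α cells, at 257411 and 243558. Muscle and testis are tissues whose subunit isoforms are described further on. The 4 muscle markers were detected on both arrays and summed to 463 and 365. Acta1 stood at 349 and 267, Myh7 at 68 and 58.4, Ckm at 23.4 and 26.7 and Tnni3, a cardiac troponin, at 22.4 and 12.9. Of the 3 testis markers 2 were detected, Prm1 at 32.8 and 32.7 and Tnp1 at 116 and 89.3, and summed to 148 and 122. Ldhc was not detected. The detected markers of other cell types had summed signals of 1378 and 1137 for acinar and duct cells (4 of 6 markers) and 853 and 649 for fibroblasts (3 of 4). The sums were 1544 and 1264 for endothelium (3, of which 2 on both arrays) and 523 and 530 for leukocytes (3, Cd68 not being named). Most of the acinar and duct sum came from Krt19 (1195 and 959) and most of the endothelial sum from Kdr (1241 and 991). Both were brighter than the median signal of each array. The part of these cell types in any subunit value was not tested.

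No subunit differed by 2-fold between the arrays. Both arrays detected 84 of the 85 genes well above background, and the exception was Cox8c. Of all 20653 named genes both arrays detected 17740. The log2 differences of the 84 genes lay between -0.33 and 0.41, with a median of 0.046, quartiles of -0.05 and 0.13 and an SD over genes of 0.13. A difference of 2-fold was met by 0 of the 84, where 2.68% of the 18513 named genes tested met it (1.09% with the FTO-labelled array higher and 1.6% with it lower). Bright genes rarely reached it, since 1 of the 3039 named genes with a mean log2 signal of 14 or more did (0.0329%), and 73 of the 84 subunits lay in that range. The share of all named genes was 0.297% with normexp background correction, 1.74% without blocks of lost signal and 3.95% with 75th percentile scaling. A difference of 1.5-fold was also met by 0, where 6.96% of all named genes met it, and no single probe of a subunit reached 2-fold, where 3.21% of named genes had such a probe. Both shares are over all signals. The 710 named genes with a mean log2 signal of 16 or more lay between -0.39 and 0.43, all short of 1.5-fold. Those from 14 to under 16 lay between -1.04 and 0.47. The 0 at 1.5-fold therefore does not set the subunits apart from genes of like signal. The median of all named genes was 0.006. The difference exceeded the spot error in 13 of the 84 subunits (15.5%), 11 of them higher and 2 lower with FTO, against 27.8% of all named genes (14.3% higher and 13.5% lower). This split holds for quantile normalization, and with each array scaled by its 75th percentile it turned to 2 higher and 11 lower (7.42% and 26.8% of all named genes). With cyclic loess 5 were higher and 5 lower (13.4% and 15.8% of all named genes). The subunits past their spot error in the same direction under all 10 ways of processing were Cox7b2, which was higher, and Cox4i2 and Ndufa4l2, which were lower. Each has 1 probe, so other background filters and the mean of probes could not change its value. The authors' log2 table and outlier spots kept also left Cox7b2 at 0.406, so these ways repeat the quantile result. How many of all named genes held in this way was not counted.

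The sign of the small median depended on the scaling. With quantile normalization 49 of the 84 subunits (58.3%) and 51.6% of all named genes lay above 0, and with each array scaled by its 75th percentile 26 (31%) did. The median moved to -0.058 with that scaling, and the median of all named genes moved to -0.055, with 38.8% of them above 0. With cyclic loess 44 subunits lay above 0 and the median was 0.006. Over 10 ways of processing, 24 subunits lay above 0 and 26 below 0 wherever they had a value, and 34 changed sign. These signs were not counted over all named genes, so the counts cannot be read as particular to the subunits. Under each of these ways 0 subunits reached 2-fold, and the largest difference among subunits above background had a size of 0.463, for Ndufa4l2.

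**Figure D1:**
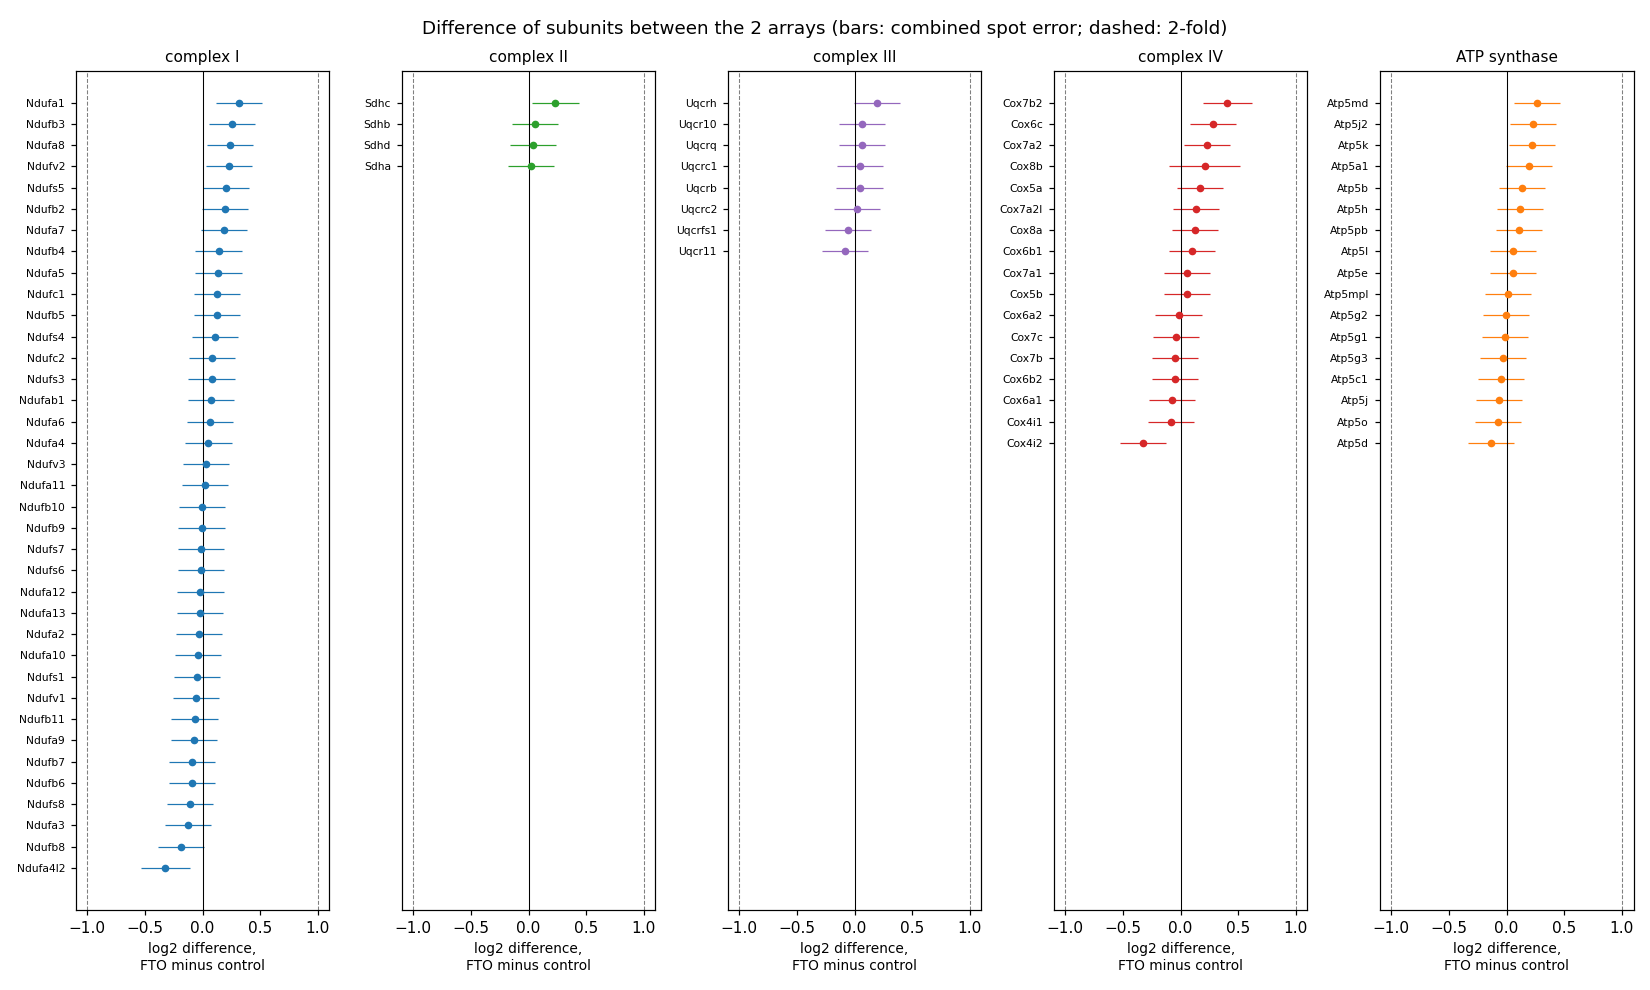
Log2 difference (x axis, FTO minus control after quantile normalization) of subunits well above background, in 1 panel per complex, with bars for the combined spot error and dashed lines at 2-fold. Every point lies between -0.33 and 0.41, inside the dashed lines, most bars cross 0, and 34 of the points change sign under another way of processing.

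The difference in brightness between the arrays varied with the signal. Before normalization the FTO-labelled array was brighter by a median log2 difference of 0.37 over all named genes and 0.368 over the subunits. The difference was smaller for the brightest probes, since over the 271 named genes with a mean log2 signal of 17 or more it was 0.156, and over the 17 subunits in that range 0.24. Of the subunits, 11 had a mean log2 signal under 14, 17 from 14 to under 16, and 39 from 16 to under 17. Beside named genes of like signal, the normalized medians were -0.018 for the 11 dimmest subunits and 0.003 for named genes, -0.046 and 0.015 in the next range, 0.056 and 0.039 from 16 to under 17, and 0.062 and 0.017 from 17. Of the 56 subunits with a mean log2 signal of 16 or more, 9 (16.1%) exceeded the spot error after quantile normalization, all higher with FTO, against 11% of the 710 named genes of that range (52 or 7.32% higher and 26 or 3.66% lower). With 75th percentile scaling 9 of the 56 exceeded it, all lower, against 34.8% lower and 0.563% higher among the named genes. With cyclic loess 3 of the 56 were higher and 3 lower, against 4.08% and 17.2% of the named genes.

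**Figure D2:**
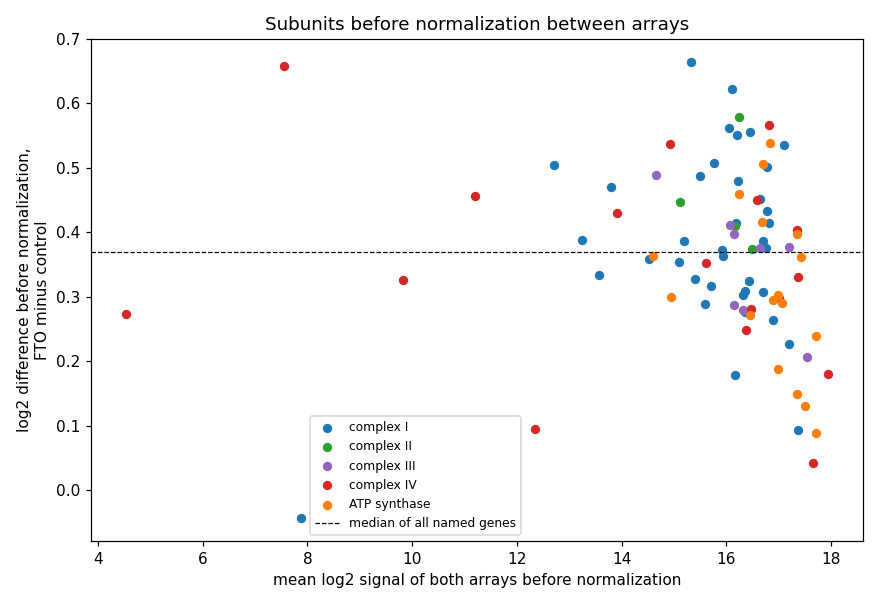
Log2 difference before normalization between arrays (y axis, FTO minus control) against the mean log2 signal of both arrays (x axis), 1 point per subunit, colored by complex, with the median of all named genes (0.37) as a dashed line. Points at a mean log2 signal above 17 lie mostly under the dashed line, with a median of 0.24 over those 17 subunits.

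In complex I, which takes electrons from NADH, the 38 subunits were split evenly, with 19 above and 19 below 0 and a median of 0.01 (0.006 with loess and -0.044 with 75th percentile scaling). FTO-labelled signals ran from 231 to 174410 and control-labelled signals from 238 to 163414. Ndufa1 (NM_019443) had the highest difference, at 168338 and 116143, which is 0.32 after normalization (0.11 to 0.35 over the ways of processing). Ndufb3, an accessory subunit of the distal membrane arm, gave 87905 and 57105 and a difference of 0.26. Both probes were above their spot error of 0.20, and both lay in regions of the array where repeated spots had lost signal. At the other end stood Ndufa4l2 (NM_001098789), a relative of Ndufa4 known to be induced in hypoxia, with 231 and 238 and a difference of -0.32 (spot error 0.21, and -0.463 to -0.212 over the ways of processing). Ndufb8, whose protein is widely used as a marker of assembled complex I, gave 78243 and 69145 and a difference of -0.19, within the spot error of 0.20, and -0.247 with 75th percentile scaling, which is past it.

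By the modules of complex I, the 10 subunits around the NADH-oxidizing N module had a median of 0.009, with 5 above and 5 below 0. The 6 subunits of the ubiquinone-reducing Q module had a median of -0.043, with 2 above 0. The proximal membrane arm had a median of 0.084 over 9 subunits, with 6 above 0 and 2 above their spot error, and with 75th percentile scaling this median was -0.011. The distal membrane arm had a median of -0.003 over 11 of its 12 subunits. Among the 7 nuclear-encoded core subunits of complex I, Ndufv2, an iron-sulfur subunit of the N module, was the only one above its spot error. Ndufv2 gave 108490 and 73833 and a difference of 0.23, and it lay within that error at 0.13 with 75th percentile scaling. Its partner Ndufv1, which holds the flavin where NADH is oxidized, gave 91767 and 75724 and a difference of -0.05. Ndufs1, the large iron-sulfur subunit next in line, gave 43043 and 32926 and -0.05. Both stood on the other side of 0 from Ndufv2 and within their spot errors. In the Q module, Ndufs3, a scaffold subunit, gave 121407 and 92864 with a difference of 0.08, and it lay below 0 with 75th percentile scaling. Ndufs7, which carries the last iron-sulfur cluster before ubiquinone, gave 70392 and 54381 with -0.01. Ndufs8, the subunit with the clusters before it, gave 13562 and 10759 with -0.11. These subunits of the Q module lay within their spot errors.

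In complex II, which oxidizes succinate and is encoded wholly in the nucleus, all 4 subunits lay above 0 after quantile normalization, with a median of 0.047, and the median was -0.022 with normexp background correction and 0.003 with 75th percentile scaling. Sdha, the flavoprotein that oxidizes succinate, gave 41228 and 30243 with a difference of 0.02. Sdhb, the iron-sulfur subunit, gave 104284 and 80491 with 0.05, and its dimmer probe gave 27761 and 22808 with -0.16. The 2 probes of Sdhb thus lay on opposite sides of 0. Sdhd gave 84895 and 63899 with 0.04. Sdhc, the other membrane anchor, gave 95269 and 63772 with 0.23, above its spot error of 0.20, and 0.154 with 75th percentile scaling. Its second probe gave 29755 and 19733 with 0.15.

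In complex III, 6 of the 8 subunits lay above 0 with a median of 0.046, and the median was -0.049 with 75th percentile scaling. None of these 8 exceeded its spot error on its brightest probe, and with 75th percentile scaling Uqcrq did, at -0.218. Cyc1, cytochrome c1 of this complex, lies outside the symbol rule and is given further on with the electron carriers. Its difference was -0.28, past its spot error of 0.20. Uqcrh, the hinge protein beside cytochrome c1, gave 171676 and 132223 with a difference of 0.19, and its second probe gave 136592 and 96386 with 0.21. The brighter probe lay on the other side of 0, at -0.05, with 75th percentile scaling. The lowest value of the 8 belonged to Uqcr11, a small accessory subunit, with 80316 and 65793 and -0.08. Next to it stood Uqcrfs1, the Rieske iron-sulfur protein that takes electrons from ubiquinol, with 89890 and 74084 and -0.06. Both lay below 0 under every way of processing that gave them a value. Uqcr10, another small subunit, gave 116013 and 89368 with 0.06. Uqcrc1, a core protein on the matrix side, gave 30777 and 21938 with 0.05. The core protein Uqcrc2 was printed 10 times on each array, which shows the spread of a subunit within an array. Its 10 FTO-labelled spots lay between 77085 and 91679 (median 83793) and its 10 control-labelled spots between 58120 and 66886 (median 64133). The 2 sets of spots did not overlap before normalization, the SD over spots was 0.079 and 0.067 on the log2 scale, and after normalization the difference was 0.02. The gap between the sets was thus of the size of the difference in brightness between the whole arrays.

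In complex IV, the median over 17 subunits was 0.059, with 10 above 0, and -0.095 with 75th percentile scaling. Ndufa4, which is now held to be a complex IV subunit despite its name, changed this little, with a median of 0.056 over 18. Of the subunits common to most tissues, Cox6c (NM_053071), a small membrane subunit, gave 140509 and 94864 with a difference of 0.28 (0.14 to 0.30 over the ways of processing), above its spot error of 0.20. Cox5a, a subunit on the matrix side, gave 188578 and 149941 with 0.17, and Cox5b, the zinc-binding subunit, gave 146042 and 118771 with 0.05. Both lay within the spot error, and both lay below 0 with 75th percentile scaling.

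Several subunits of complex IV exist as a widely expressed form and a form known from heart, muscle, lung, testis or hypoxia. Of the 8 such forms on the array, Ndufa4l2 included, 7 were detected on both arrays. Of all 20653 named genes 17740 were, which is a similar share. The levels of different probes are not set against each other here, since probes bind with different strength. Cox4i1, the widely expressed form of subunit 4, gave 92879 and 78197 and a log2 difference of -0.08. Cox4i2 (NM_053091), its form known from lung and from hypoxia, gave 5418 and 5071 and -0.33, below 0 by more than the spot error of 0.20 and between -0.345 and -0.32 under all 10 ways of processing. After quantile normalization Cox4i2 and Ndufa4l2 were the 2 subunits lower with FTO by more than the spot error. With 75th percentile scaling 11 were, among them Cox6a1, Cox8a, Ndufb11 and the 3 genes of the c subunit, and with cyclic loess 5 were, Cox6a1, Atp5g2 and Ndufb11 beside these 2.

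Cox6a1 gave 209945 and 203837 with a difference of -0.07, and its heart and muscle form Cox6a2 gave 17848 and 13250 with -0.02. Cox6b1 gave 37538 and 25858 with 0.10, and its testis form Cox6b2 gave 1014 and 809 with -0.05. None of these 4 exceeded its spot error after quantile normalization, but Cox6a1 stood at -0.383 with 75th percentile scaling and at -0.273 with cyclic loess, both past its spot error of 0.20. Cox7a2 gave 192716 and 145737 with 0.23, just above the spot error of 0.20, and -0.02 with 75th percentile scaling, while Cox7a1, its heart and muscle form, gave 2753 and 2007 with 0.06. Cox7b gave 56566 and 44281 with -0.05. Its testis form Cox7b2 (NM_030052) gave 235 and 149 and the highest difference of all subunits, 0.41 with a spot error of 0.21 and between 0.235 and 0.406 over the ways of processing.

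For subunit 8, the widely expressed Cox8a had 2 probes on opposite sides of 0, with 269328 and 237671 and a difference of 0.12 for the brighter (-0.245 with 75th percentile scaling, past its spot error of 0.20) and 182617 and 179146 and -0.14 for the dimmer. The heart and muscle form Cox8b gave 25.5 and 21.1, close to the signals of the dimmest detected probes (13.1 and 10.1), with a difference of 0.21 inside a spot error of 0.31. Cox8c (NM_001039049), a form known from testis, gave 3.28 and 4.81 and was well above background on neither array, so no fold is given. By another measure, the 99th percentile of the 153 negative control spots of each array (5.69 and 4.28), the signal of Cox8c lay above the negative controls on the control-labelled array and below them on the FTO-labelled array. Ndufa4 gave 86219 and 64687 with 0.05. A signal of a tissue form shows that its probe bound labeled RNA in these cultures, and a probe can also bind the RNA of a related gene.

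**Figure D3:**
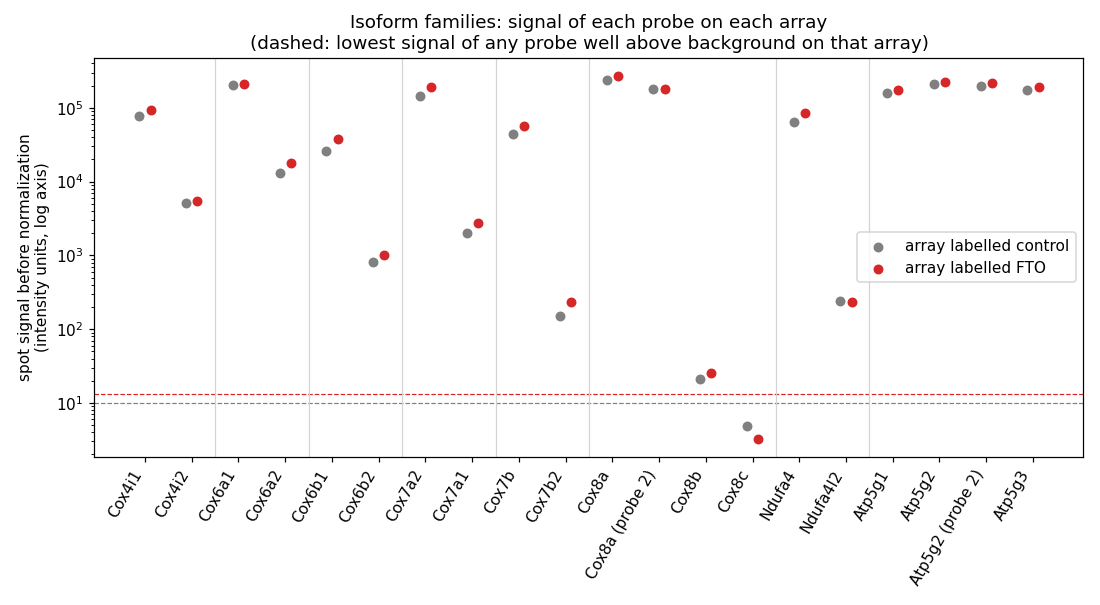
Signal before normalization (y axis, intensity units, log axis) of the probes of the isoform families (x axis), with grey points for the control-labelled array and red points for the FTO-labelled array, and dashed lines at the dimmest detected probe of each array (10.1 and 13.1). Cox8c lies under both lines, Cox8b is close above them at 25.5 and 21.1, and every other probe lies at 149 or more.

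In ATP synthase, the median over 17 subunits was 0.055, with 10 above 0, and it was -0.126 with 75th percentile scaling and -0.044 with loess. FTO-labelled signals ran from 28175 to 232308 and control-labelled signals from 21903 to 207700. In the catalytic F1 part, Atp5b, the β subunit with the catalytic sites, gave 232308 and 196711 with a difference of 0.13, and Atp5a1, the α subunit, gave 199315 and 155046 with 0.20. Atp5c1, the γ subunit of the rotor, gave 98184 and 81355 with -0.05. Atp5d, the δ subunit of the central stalk, gave 35104 and 28533 with -0.14, the lowest of the complex. The F1 median over 5 subunits was 0.055, and -0.135 with 75th percentile scaling.

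The ring of c subunits, which turns as protons pass, is encoded by 3 genes with the same mature protein. Atp5g1 gave 176044 and 158766 with a difference of -0.01. Atp5g2 gave 220806 and 207700 with -0.0048, and 218247 and 197966 with 0.02 on its second probe. Atp5g3 gave 193277 and 176564 with -0.03. The 3 genes were alike to within 0.03 on their brightest probes. The c-ring median of -0.015 became -0.191 with loess and -0.295 with 75th percentile scaling, under which all 3 genes lay below 0 by more than their spot error of 0.20. Its 3 genes had the smallest median difference before normalization of the groups described here, 0.13. The peripheral stalk had a median of 0.02 over 4 subunits, with 2 above 0. Atp5o, the subunit that ties this stalk to F1, gave 28175 and 21903 with -0.07.

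All 5 small subunits of the membrane part other than the c ring lay above 0, with a median of 0.216 and 3 above their spot error of 0.20, and with 75th percentile scaling 2 of the 5 lay above 0, none above its spot error, with a median of -0.028. Atp5md (NM_023211), a subunit tied to dimers of the enzyme, gave 141382 and 97300 with a difference of 0.26 (0.11 to 0.27 over the ways of processing). Atp5j2, subunit f, gave 192870 and 146406 with 0.22, and its dimmer probe gave 69254 and 51962 with 0.02. Atp5k, subunit e, gave 127723 and 89925 with 0.22 and 93506 and 67863 with 0.12 on its second probe. Atp5l, subunit g, had 5 probes between -0.01 and 0.28, and its brightest gave 144552 and 117222 with 0.06. Averaging the probes of each gene brought the median of these 5 subunits to 0.123, and cyclic loess brought it to 0.072, with 3 of the 5 above 0.

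**Figure D4:**
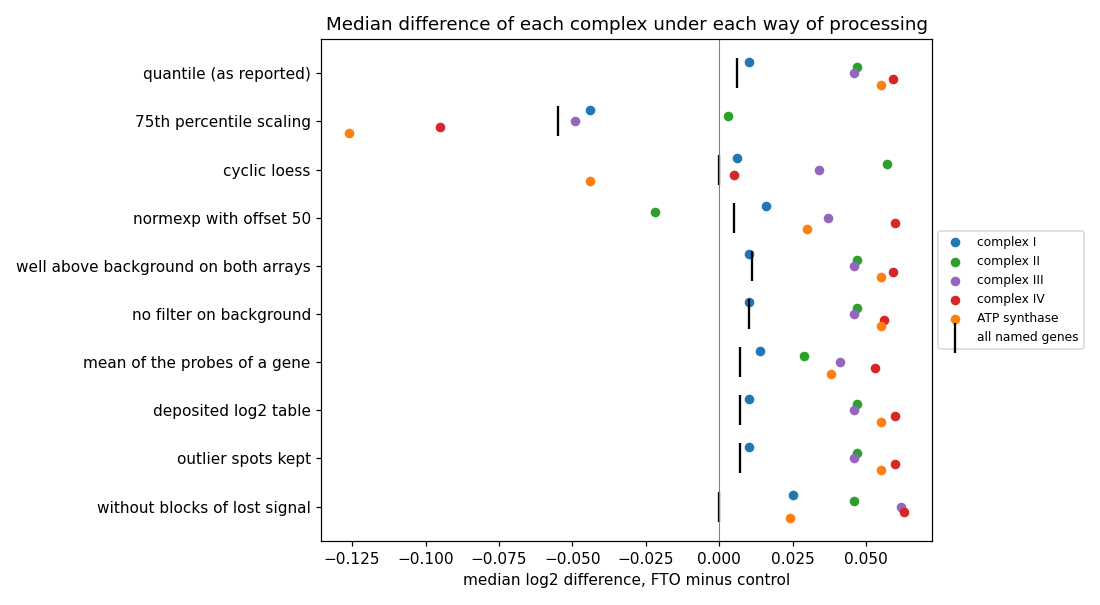
Median log2 difference (x axis, FTO minus control) of each complex under each of 10 ways of processing (y axis), with a black bar for the median of all named genes. With quantile normalization the medians of all 5 complexes lie between 0.01 and 0.059, and with 75th percentile scaling those of complexes I, III and IV and of ATP synthase lie below 0, ATP synthase lowest at -0.126.

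A list of 18 subunits was taken for the catalytic and redox core across the 5 complexes. It is wider than the redox carriers, since it also holds Uqcrc1, Uqcrc2, Cox4i1, Cox5a and Cox5b. It leaves out Cyc1, which stood at -0.28, past its spot error of 0.20. The log2 differences of the 18 lay between -0.11 and 0.23, with a median of 0.02 and 10 above 0. Ndufv2 was the only one of the 18 above its spot error, and with 75th percentile scaling or cyclic loess 0 of the 18 were past it. The 7 core subunits of complex I had a median of -0.046, and the 3 of ATP synthase a median of 0.131. With 75th percentile scaling these medians were -0.053 and -0.154, and with cyclic loess 0.005 and -0.074, so that of ATP synthase lay on the other side of 0 with both.

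The agreement between probes gives a measure of error that the spot error does not hold. Several probes were present for 22 of the 85 genes (51 probes), and their differences lay apart by a median of 0.115, from 0.002 for Ndufb4 to 0.294 for Atp5l. The probes lay all above 0 for 10 genes, all below 0 for 2 and on both sides of 0 for 10. None of the 22 genes had probes more than 0.5 apart. For 63 genes a single probe gave the value. Many subunit genes have processed pseudogenes with nearly the same sequence, and a probe may bind their RNA too.

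**Figure D5:**
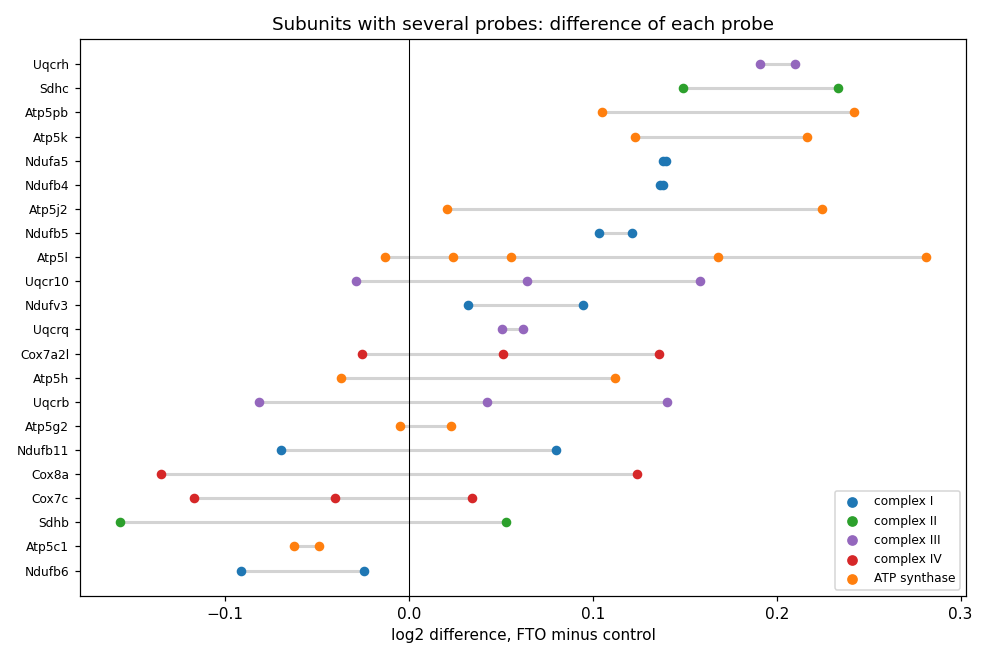
Log2 difference (x axis, FTO minus control after quantile normalization) of each probe of the 22 subunits with several probes (y axis), colored by complex, with a grey line from the lowest to the highest probe of a gene. The probes of 10 genes lie on both sides of 0, and the widest line, that of Atp5l, spans 0.294.

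Some probes lay where an array had lost signal. Of 35 blocks of the array surface, 6 on the FTO-labelled and 2 on the control-labelled array held many low spots among repeated probes (29% inside against 1.86% outside for FTO, and 18.2% against 1.85% for control). The brightest probe of 23 subunits lay in such a block, among them Ndufa1, Ndufb3, Sdhc and Atp5k, and none of complex IV. Without those blocks 68 subunits had a value, with a median of 0.055 and 42 above 0.

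Medians were set side by side for genes with and without the promoter letters, with no test between them. The 13 genes with the NRF1 letters had a median log2 difference of 0.04, from -0.07 to 0.24, and the 56 genes without them 0.054. The 12 genes with the ETS letters had a median of 0.048 and the 57 without them 0.053. For the hypoxia core ACGTG the medians were 0.007 over 14 genes with it and 0.055 over 55 without. Of the 3 genes with both NRF1 and ETS letters, Sdhd stood at 0.04, Cox6a1 at -0.07 and Atp5h, with signals of 121982 and 91469, at 0.11.

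Other genes of the pathway were counted in the same way, and 0 of the 93 tested in 4 lists differed by 2-fold. Of all named genes tested, 2.68% did, and of those with a mean log2 signal of 14 or more, where part of these lists lies, 0.0329% did. Of 49 assembly factors, 47 were tested, and Pet100 and Pet117 were not named. Their median was 0.01, with 29 above 0, 5 higher and 2 lower by more than the spot error. Over all named genes 51.6% lay above 0, and 14.3% were higher and 13.5% lower by more than the spot error. The lowest was Bcs1l, the chaperone that inserts the Rieske protein into complex III, with 11346 and 10939 and a difference of -0.39 (spot error 0.20), and its second probe gave 8871 and 7184 with -0.13. The highest was Lyrm7, which holds the Rieske protein before insertion, with 32.4 and 20.1 and a difference of 0.63 (spot error 0.30). Its signals were near those of the dimmest detected probes (13.1 and 10.1). The Rieske protein Uqcrfs1 itself stood at -0.06.

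Among the 20 electron carriers and enzymes that feed electrons to ubiquinone or make it, the median was 0.024, with 12 above 0. Cyc1, cytochrome c1 of complex III, gave 37927 and 34062 with a difference of -0.28 (spot error 0.20). Coq3, a methyltransferase of ubiquinone synthesis, gave 65.4 and 33.4 with 0.85 (spot error 0.25), the largest difference of these pathway genes on their brightest probes. Among the 16 regulators of mitochondrial genes the median was 0.058, with 12 above 0. Esrra, a nuclear receptor that activates subunit genes, gave 7334 and 6226 with -0.20. Nrf1, the activator whose letters were searched above, gave 8556 and 4833 with 0.40 on its brightest probe, while its 2 dimmer probes gave 871 and 783 with -0.22 and 568 and 569 with -0.34. The probes of Nrf1 thus lay on opposite sides of 0 by more than the spot error of 0.20 each, and no single direction can be given for this gene. Among the 10 uncoupling proteins and carriers the median was -0.026, with 4 above 0. The lowest was Slc25a31, the testis form of the ADP/ATP carrier, with 16.9 and 22.5, near the dimmest detected probes, and -0.45 (spot error 0.34). The highest was Slc25a4, its heart and muscle form, with 123270 and 92736 and 0.11.

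For comparison on the same arrays, the 78 mitochondrial ribosomal protein genes had a median of -0.015, with 32 above 0, and the 86 cytosolic ribosomal protein genes tested a median of 0.002, with 43 above 0. With 75th percentile scaling these medians were -0.032 and -0.263, beside -0.058 for the subunits. Neither list had a gene past 2-fold, where 2.68% of all named genes tested were past it. Both lists are bright, with median FTO-labelled signals of 24743 for mitochondrial and 163954 for cytosolic ribosomal proteins. Of named genes with a mean log2 signal of 14 or more only 0.0329% were past 2-fold. The difference between the lists was not tested, since 1 array per condition gives no spread between samples.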

How the data were processed

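Total RNA of each culture was hybridized to 1 one-color Agilent whole mouse genome array, and groups were taken from the sample labels. The authors deposited the intensity of each spot as Agilent Feature Extraction 11.0.1.1 wrote it, background-subtracted and detrended, with error estimates and flags. A second deposited table holds log2 values that by the methods had been quantile normalized in GeneSpring GX. Here control spots and outlier spots (148 for FTO, 141 for control) were left out, log2 intensities were averaged over the spots of each probe, and quantile normalization was run on the 2 arrays (R 4.3.3, limma 3.58.1). Counts, medians and figures were made in Python 3.11.15 (pandas 2.3.3, numpy 2.4.6, matplotlib 3.10.9). Quantile normalization and the 2-fold call were tested on a simulated pair of arrays. The planted changes were larger than 2-fold, and the difference in brightness was the same at every signal. The simulation thus does not cover smaller differences or a difference in brightness that varies with the signal.

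RefSeq accessions were found for 28674 of 39417 probes, and 27224 probes were named through the RefSeq annotation of GRCm38.p6. The array was designed on an older build, so probe coordinates are not given. A gene was tested if either array detected a probe of it above background by the software's flag (50% or more of spots for probes printed 10 times), its value is that of its brightest probe by mean log2 signal, and a call is a log2 difference over 1 or under -1. Blocks of lost signal are those in which 15% or more of the repeated spots of 79 probes lay more than 0.5 (log2) under the median of their probe.

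With 1 array per condition no test, p-value or error over samples was possible, and 1 array each limits the precision. The genes named are the isoforms, the catalytic core, the 2 highest and 2 lowest subunits of each complex, and the highest and lowest gene of each other list, except 1 subunit that is not reported here by name. Atp5h, Atp5k, Atp5l, Ndufb4 and the single markers, the promoter motifs and the printed promoters were chosen after values were seen. The members and lists were chosen with earlier results of these data known. Alternatives were 75th percentile scaling, cyclic loess, normexp with an offset of 50, other background filters, the mean of probes, the authors' log2 table, outlier spots kept and blocks of lost signal left out.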

Additional observations from a re-analysis of the deposited data

How the results depend on the processing

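The count of 0 subunits past 2-fold was the same under all alternatives, including a call at 1.5-fold and a call on any probe. With each array scaled by its 75th percentile the median of all subunits became -0.058, that of complex IV -0.095 and that of ATP synthase -0.126, and with cyclic loess that of ATP synthase became -0.044. Past the spot error, 11 subunits were higher and 2 lower after quantile normalization, 2 and 11 with 75th percentile scaling, and 5 and 5 with cyclic loess. Of the 75 alternative values of medians, call counts and isoform flags, only the 4 medians named above counted as moved. For a median this took a shift of 0.098 on the log2 scale, the spread of repeated bright spots on both arrays together. For a count it took a change of more than 1.5-fold. The median of complex III, from 0.046 to -0.049 with 75th percentile scaling, did not count as moved. Several alternatives, such as the other background filters, left most subunit values as they were. Of 415 alternative values of the 47 named subunits, 16 moved by more than the spot error, each under 75th percentile scaling or cyclic loess. Why the scalings part was not tested. No paired analysis was possible because there is 1 array per condition. Signals near background limit Cox8b, Cox8c, Lyrm7 and Slc25a31, and Coq3 was dim as well. Of named genes with a mean log2 signal under 14, 31.4% were past their spot error. For Lyrm7, Slc25a31 and Coq3 no values under other ways of processing are given. No depth of counts applies to arrays.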
